A study of Mus musculus with 2 samples.

Results

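The synaptic vesicle and release genes described here are 38 genes of the presynaptic terminal, taken by gene symbol from a fixed list, out of 18193 genes that had a probe set with 1 symbol on the array. Each gene was read from its brightest probe set. Of the 38 genes, 35 were above a floor in at least 1 array, out of 12473 such genes in all, the floor being the median signal of both arrays together (106.4). Doc2b, Sv2c and Slc17a7 were under it in both. The tissue was white matter, namely optic nerve with optic tract, and the mice were males, either wild-type (WT, 13 to 15 weeks of age) or CD47 null (CD47 KO, 12 to 15 weeks). CD47 is the ligand of SIRPα, a receptor that restrains microglia and other phagocytes, and the comparison asks how white matter expression differs without it. Each genotype was 1 array of RNA pooled from several animals. The series text gives 5 WT and 4 CD47 KO mice, as do the methods of the study, whereas the labelling protocol gives 4 and 5. With 1 array per genotype there was no replicate, no test and no standard error, and every ratio below compares these pools alone.

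A nerve terminal releases transmitter when a vesicle fuses with the plasma membrane. The SNARE proteins of vesicle and target membrane draw the membranes together, synaptotagmins sense the calcium that triggers fusion, complexins hold the assembled complex ready, and the active zone scaffold keeps vesicles at the release site. After fusion the ATPase NSF and its SNAP adaptors take the SNARE complex apart, and dynamin, amphiphysin, endophilin and synaptojanin recover the membrane. The optic nerve and tract are known as a tissue of retinal axons, oligodendrocytes, astrocytes and microglia with few synapses, so most transcripts of these genes are otherwise known from neurons of grey matter.

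The promoters of genes from this list are shown for those more than 2-fold lower in CD47 KO that had an entry (Slc17a6, Sncb and Dnm1), for Syn1, whose promoter is a classical neuronal one, and for Syt11, which did not share their direction. They are RefSeq windows of assembly GRCm38.p6, 250 bases before the transcription start, read 5′ to 3′ on the strand of the gene. Entries were found for 31 of the 38 genes. Slc17a6 lies on the plus strand (chr7:51621580-51621829, the upstream one of its 2 windows), Sncb on the minus strand (chr13:54766596-54766845), Dnm1 on the minus strand (chr2:32353330-32353579), Syn1 on the minus strand (chrX:20920919-20921168) and Syt11 on the minus strand (chr3:88772600-88772849). Capitals mark a match, on either strand, to a GC box (GGGCGG), a cyclic AMP response element (TGACGTCA), a TATA box (TATAAA) or the left (CAGCACC) or right (GGACAG) part of RE1, the element bound by the neuronal repressor REST.
Slc17a6: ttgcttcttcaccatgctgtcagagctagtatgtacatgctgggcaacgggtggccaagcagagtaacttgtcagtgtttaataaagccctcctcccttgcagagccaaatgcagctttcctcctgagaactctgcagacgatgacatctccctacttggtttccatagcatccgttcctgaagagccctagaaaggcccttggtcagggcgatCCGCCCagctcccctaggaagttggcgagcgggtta
Sncb: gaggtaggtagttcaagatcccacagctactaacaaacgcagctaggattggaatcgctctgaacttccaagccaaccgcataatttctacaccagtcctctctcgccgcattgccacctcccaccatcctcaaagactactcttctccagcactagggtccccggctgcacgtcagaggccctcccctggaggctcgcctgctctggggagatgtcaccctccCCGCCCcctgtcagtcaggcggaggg
Dnm1: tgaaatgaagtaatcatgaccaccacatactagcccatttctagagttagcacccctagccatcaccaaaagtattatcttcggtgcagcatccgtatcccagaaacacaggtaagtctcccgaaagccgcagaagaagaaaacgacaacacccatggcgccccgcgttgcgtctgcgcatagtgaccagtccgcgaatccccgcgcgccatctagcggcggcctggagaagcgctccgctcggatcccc
Syn1: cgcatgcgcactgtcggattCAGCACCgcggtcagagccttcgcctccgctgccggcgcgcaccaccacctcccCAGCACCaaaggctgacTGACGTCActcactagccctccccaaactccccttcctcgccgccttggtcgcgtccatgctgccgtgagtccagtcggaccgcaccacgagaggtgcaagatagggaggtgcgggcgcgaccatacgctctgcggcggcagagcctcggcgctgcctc
Syt11: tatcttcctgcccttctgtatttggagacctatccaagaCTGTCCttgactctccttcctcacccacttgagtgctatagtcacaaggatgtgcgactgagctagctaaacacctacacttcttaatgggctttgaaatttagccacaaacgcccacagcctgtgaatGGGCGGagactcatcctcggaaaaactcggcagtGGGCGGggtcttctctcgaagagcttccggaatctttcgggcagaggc

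The GC box of Slc17a6 begins 36 bases before the start and that of Sncb 26 bases before it, and the window of Dnm1 held none of the 5 motifs. In Syn1 the left part of RE1 was found 230 and 176 bases before the start, and the cyclic AMP response element 159 bases before it. The 31 genes had 43 windows. A GC box was in 21 of the 43 (48.8%), against 32.7% of all 32851 windows, and a TATA box in 2 (4.65%), both of Sv2b, against 12.4%. The left part of RE1 was in 3 windows (6.98%), those of Rph3a, Sv2c and Syn1, against 5.73% of all, and the right part in 8 (18.6%), close to the 18.7% of all windows. In Rph3a the matches to both parts overlapped. The cyclic AMP response element was in 2 windows (4.65%), of Syn1 and Sh3gl2, against 1.55% of all. The median GC content was 58.8% in the windows of these genes and 52.4% in all windows. A match is a run of letters and not a known binding site.

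Most synaptic vesicle and release genes were lower in the CD47 KO pool of white matter RNA. Of the 35 genes above the floor, 31 had a log2 ratio of CD47 KO over WT below 0 (88.6%), where 53.2% of all 12473 genes did. Among the 31, Syt5 and Bsn were at -0.00. Over 1.5-fold lower were 15 of the 35 (42.9%), against 4.68% of all genes. Over 2-fold lower were 4 (11.4%), against 0.818%, namely Slc17a6, Sncb, Syngr3 and Dnm1. Of these, only Slc17a6 had a further probe set above the floor. Sncb had 1 on the array, and the other ones of Syngr3 and Dnm1 were under the floor in both arrays. Over 2-fold higher was 1 (2.86%), Syngr1, against 1.21%, and its probe sets went opposite ways. The median log2 ratio of the 35 genes was -0.52 (1.44-fold lower), against -0.02 over all genes. Without Syngr1 it was -0.53 over 34 genes. In such bulk RNA, fewer cells of a type in a pool and less RNA per cell cannot be told apart.

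**Figure D1:**
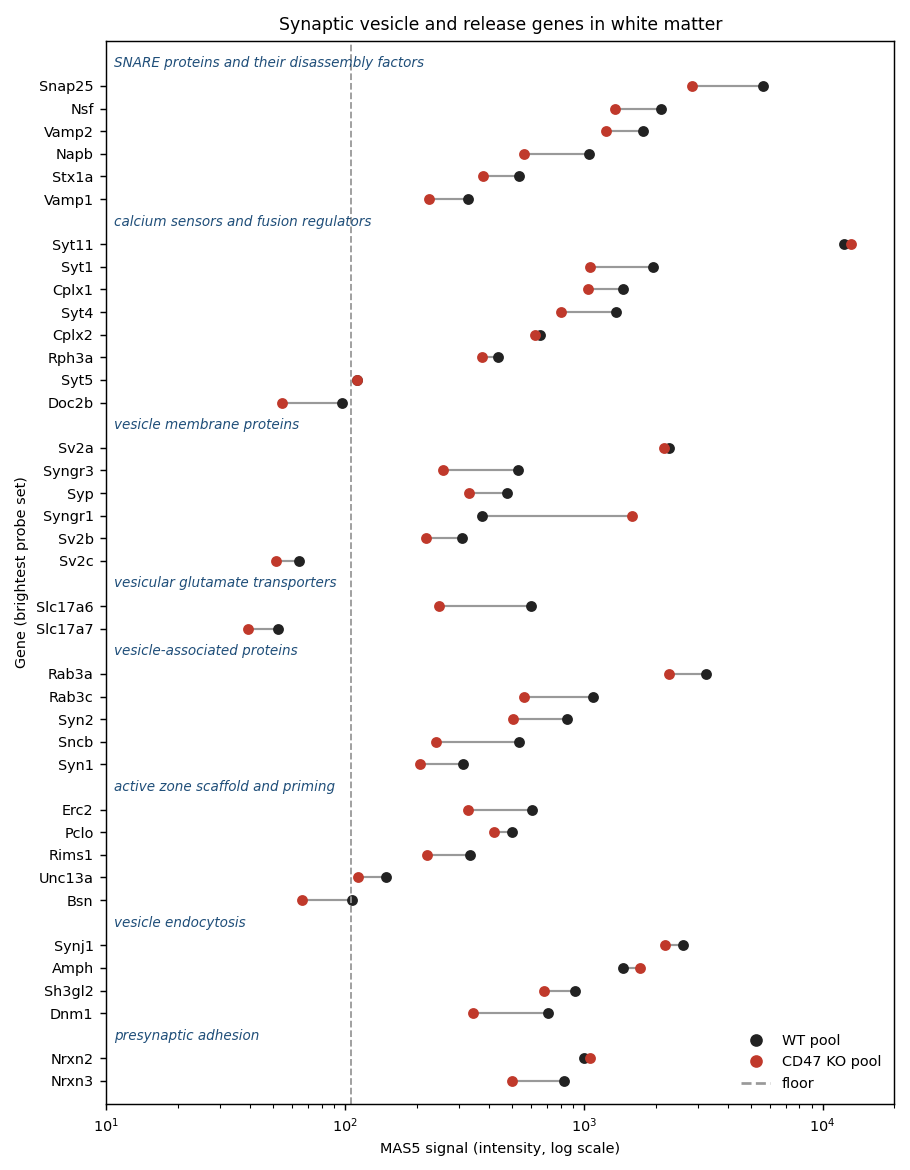
MAS5 signal (horizontal, log scale) of the brightest probe set of each of the 38 genes, by role, black for WT and red for CD47 KO; the dashed line is the floor of 106.4. For most genes the red point lies to the left of the black one, as for Snap25 (5610 in WT and 2843 in CD47 KO), while Syngr1, Amph, Syt11 and Nrxn2 go the other way. Syngr1 does so by this probe set and not by its next brightest.

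The SNARE proteins and the factors that disassemble them were lower for all 6 measured genes, with a median log2 ratio of -0.59. Snap25, a SNARE of the plasma membrane, was measured at 5610 in WT and 2843 in CD47 KO, 1.97-fold lower and just short of the 2-fold mark that Dnm1 and Syngr3 (2.05-fold) passed. Its other probe set, at 212 and 162, was 1.3-fold lower. Napb, the neuronal β-SNAP adaptor, went from 1053 in WT to 562 in CD47 KO (1.87-fold lower), and Nsf, the ATPase it recruits, from 2107 to 1356 (1.55-fold lower). Their log2 ratios were -0.91 and -0.64. The vesicle SNARE genes stood close to each other, with Vamp1 at 328 and 224 (log2 ratio -0.55) and Vamp2 at 1774 and 1234 (log2 ratio -0.52). Neither had another probe set above the floor. Stx1a, the syntaxin of the plasma membrane, had signals of 536 and 379 (log2 ratio -0.50), from a probe set marked for possible cross-hybridisation, and its other probe set did not reach the floor in either array. By the brightest probe sets, the span of the group was thus from -0.98 to -0.50, with none near 0.

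The calcium sensors and regulators of fusion did not move as a block, the median log2 ratio over the 7 above the floor being -0.22. Syt1, the sensor of fast release, went from 1943 in WT to 1057 in CD47 KO (1.84-fold lower). Syt4, a synaptotagmin of neuropeptide vesicles, went from 1369 to 804 (1.70-fold lower), and its other probe set from 962 to 397 (log2 ratio -1.28). Cplx1 (complexin 1) went from 1464 to 1044 (log2 ratio -0.49). Cplx2 (complexin 2) was at 653 and 622 (log2 ratio -0.07), by a probe set marked for cross-hybridisation. Its other probe sets gave -0.19 and -0.40, so its distance from Cplx1 depends on the probe set. The Rab3 effector rabphilin, Rph3a, was at 437 and 376 (log2 ratio -0.22). Syt5 was just above the floor in both arrays, at 112 and 112. Its log2 ratio of -0.00 is counted below 0. It was 0.03 with quantile normalization and with median centring, and 0.02 with loess. Syt11, a synaptotagmin without calcium binding that is known from glia as well as neurons, was at 12320 and 13103 (log2 ratio 0.09, by a probe set marked for cross-hybridisation). Each of its 5 probe sets was slightly higher in CD47 KO, with log2 ratios from 0.08 to 0.26.

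Proteins of the vesicle membrane differed among themselves. Syngr3, a neuronal synaptogyrin, went from 528 to 257 (2.05-fold lower). Syp, which encodes synaptophysin, the common marker of synaptic vesicles, went from 478 to 331 (1.45-fold lower), and the vesicle glycoprotein gene Sv2b from 308 to 219 (1.41-fold lower). Its relative Sv2a was at 2272 and 2162 (log2 ratio -0.07), while Sv2c was under the floor, at 64.4 and 51.4. Syngr1, the other synaptogyrin, went from 376 in WT to 1588 in CD47 KO by its brightest probe set (4.22-fold higher, log2 ratio 2.08), but 729 and 490 by its next (log2 ratio -0.57). Among all 11653 pairs of probe sets of the same gene above the floor in both arrays, this difference of 2.65 was the largest. No direction is therefore given for Syngr1.

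The vesicular glutamate transporter gene Slc17a6 (VGLUT2), which fills vesicles of thalamic, hypothalamic and retinal ganglion neurons, had the lowest ratio of the 35 genes. Its signal went from 601 in WT to 247 in CD47 KO, 2.43-fold lower with 41.1% of WT left, and by its other probe set from 369 to 148 (log2 ratio -1.32). Slc17a7 (VGLUT1), the transporter of cortical and hippocampal neurons, was under the floor, at 52.3 and 39.2, and so has no ratio here.

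Proteins attached to the vesicle surface were lower for all 5 measured genes, with a median log2 ratio of -0.75. Sncb, which encodes β-synuclein, went from 535 in WT to 240 in CD47 KO (2.23-fold lower). Rab3c went from 1097 to 560 (1.96-fold lower), and Rab3a, the main Rab GTPase of synaptic vesicles, from 3260 to 2284 (1.43-fold lower, by a probe set marked for cross-hybridisation), with a log2 ratio of -0.50 by its other probe set. Both synapsins, which tether vesicles to one another, were lower, with Syn1 at 312 and 206 (1.52-fold lower) and Syn2 at 850 and 505 (1.68-fold lower). The 4 probe sets of Syn2 spread from -0.75 to 0.06, so that 1 of them did not share the direction.

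The active zone scaffold and its priming factors had a median log2 ratio of -0.40 over 5 genes. Erc2 (ELKS2/CAST), a scaffold protein, went from 604 in WT to 328 in CD47 KO (1.84-fold lower). Rims1, which links Rab3 to the release site, went from 335 to 221 (1.52-fold lower), but from 163 to 167 by its other probe set. Unc13a (Munc13-1), which primes vesicles for fusion, went from 149 to 113 (log2 ratio -0.40), both close to the floor. The giant scaffold gene Pclo (piccolo) was at 500 and 420 (log2 ratio -0.25), and Bsn (bassoon) was at 107 in WT, at the floor, and 66.2 in CD47 KO, under it, so that the floor leaves only a bound of -0.00, which is counted below 0 and in the median here.

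Of the genes for vesicle recovery, Dnm1, the neuronal dynamin that cuts vesicles from the membrane, went from 707 in WT to 345 in CD47 KO (2.05-fold lower). Sh3gl2 (endophilin A1) went from 923 to 682 (log2 ratio -0.44), with -0.01 by its other probe set. The lipid phosphatase gene Synj1 (synaptojanin 1) was at 2593 and 2192 (log2 ratio -0.24), and its 3 probe sets lay between -0.41 and 0.00. Amph (amphiphysin) was at 1458 and 1714 (log2 ratio 0.23), opposite to Dnm1. The presynaptic adhesion genes also differed from each other, with Nrxn3 (neurexin 3) at 830 and 500 (1.66-fold lower, and below 0 by each of 4 probe sets) and Nrxn2 at 1004 and 1059 (log2 ratio 0.08).

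The sole repeat measurement on these arrays was that of several probe sets for 1 gene. The 38 genes had 96 probe sets, of which 61 were above the floor in both arrays, and 50 of the 61 were below 0, with a median log2 ratio of -0.49. Of the 16 genes with at least 2 such probe sets, 11 were below 0 by each of them, 1 (Syt11) was above 0 by each, and 4 (Rims1, Syn2, Syngr1 and Synj1) were not on 1 side of 0. The same counts were not made over all probe sets of the array, so no background share stands beside them. The difference between probe sets of 1 gene had an SD of 0.36 (log2) over 11653 pairs in 4740 genes of the array, and of 0.36 over 42 pairs of these genes without Syngr1. Differences between single genes of the list that are smaller than this, such as Vamp1 against Vamp2, lie within the spread between probe sets. Variation between mice or between hybridisations is not part of that spread.

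**Figure D2:**
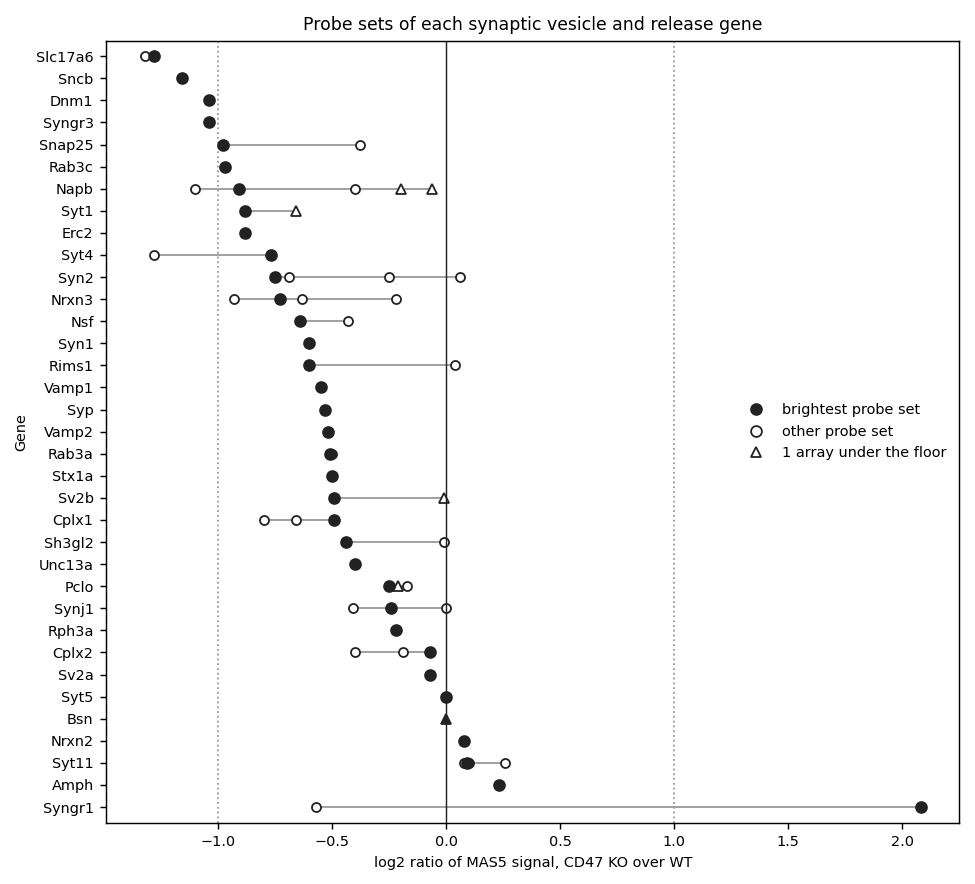
Log2 of the CD47 KO to WT ratio (horizontal axis) for every probe set, above the floor in at least 1 array, of the 35 genes, ordered by the brightest probe set (filled). Open circles are other probe sets, triangles have 1 array under the floor, and dotted lines mark 2-fold; Slc17a6 is lowest by both of its probe sets (-1.28 and -1.32), and the pair of Syngr1 is the widest (2.08 and -0.57).

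Dim genes differ more between arrays than bright ones, so the counts were also set out by brightness. In the 4 equal groups of all genes by mean signal, from dim to bright, 9.2%, 5.61%, 2.6% and 1.31% of genes were over 1.5-fold lower. Among the genes of this list, 1 of 5, 6 of 11, 6 of 12 and 2 of 7 were. All 4 genes over 2-fold lower stood in the second group, of which 1.06% of genes were that much lower. Below 0 were 5 of 5, 11 of 11, 10 of 12 and 5 of 7, against 57.5%, 54.7%, 50.9% and 49.6% of all genes in the same groups.

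Other genes of neuronal release, not in the list, had a median nearer to 0. Of 44 such genes 5 were not analysed here and 6 were under the floor. Of the other 33, 25 were below 0, 8 were over 1.5-fold lower and 1 over 2-fold lower, with a median log2 ratio of -0.23. The shares over all genes were 53.2%, 4.68% and 0.818%. The gene over 2-fold lower was Stxbp5l (tomosyn 2), a brake on SNARE assembly, at 221 in WT and 85.4 in CD47 KO, under the floor (at least 2.07-fold lower). The 3 brightest, Unc13c, Sh3gl3 and Dnajc5, had log2 ratios of 0.34, 0.10 and -0.23. Chosen after their values were seen, Slc32a1, the vesicular transporter of GABA and glycine, went from 377 to 214 (1.76-fold lower), and Rims3 from 564 to 328 (1.72-fold lower). Synpr (synaptoporin) went from 426 to 234 (1.82-fold lower). Of the 33 genes, 8 were above 0, the highest being Ppfia4, which went from 284 to 412 (log2 ratio 0.54). This list was chosen with earlier results of these data known. Its difference from the 35 genes could not be tested with 1 array per genotype.

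Relatives of these genes that most cells use for membrane traffic were near 0 or higher. This list, too, was chosen with earlier results of these data known, and of its 50 genes 1 was not analysed here. The other 49 had a median log2 ratio of 0.12, and 14 were below 0, against 53.2% of all genes. Over 1.5-fold lower was 1 (Ap2a1, a subunit of the AP-2 adaptor, with a log2 ratio of -0.60), against 4.68% of all genes. Over 1.5-fold higher were 2, and none was over 2-fold in either direction. The 2 were Syngr2 and Vamp5, a SNARE of muscle and other non-neuronal cells, which had the largest ratio of the list (916 in WT, 1435 in CD47 KO, log2 ratio 0.65). The 3 brightest, the clathrin chain genes Cltc and Clta and the synaptophysin relative Sypl, had log2 ratios of 0.20, 0.08 and 0.18. In 11 pairs of a synaptic gene with a broad relative, formed after the values were seen, the ratio of the synaptic gene was the lower in 10, by a median of 0.88 on the log2 scale. Snap25 was 1.97-fold lower while Snap23, which serves fusion in many cells, went from 984 to 1183 (log2 ratio 0.27). Dnm2, the ubiquitous dynamin, went from 666 to 737 (log2 ratio 0.15), against -1.04 for Dnm1. Syngr2 went from 1774 to 2676 (log2 ratio 0.59), against -1.04 for Syngr3. The exception was Amph, with 0.23 against 0.16 for Bin1 (amphiphysin 2).

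**Figure D3:**
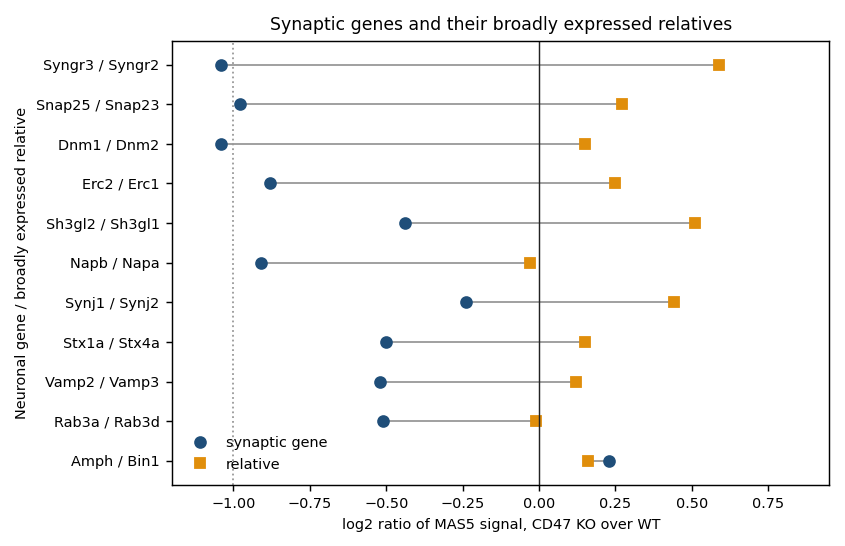
Log2 of the CD47 KO to WT ratio (horizontal axis) for 11 synaptic genes (circles) and a broadly expressed relative of each (squares), ordered by their difference; the dotted line marks 2-fold lower. The relatives lie between -0.03 and 0.59, and in 10 of the 11 pairs the synaptic gene lies to the left. The pairs were formed after the values were seen, so this count is no test.

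Genes of the postsynaptic side and of the axon were set beside these. For glutamate receptors and postsynaptic density genes the median was -0.43 (log2, 22 genes above the floor), with 19 below 0, 6 over 1.5-fold lower and 1, the kinase gene Camk2a (1611 in WT and 768 in CD47 KO), over 2-fold lower. Their brightest gene, Grm3, had a log2 ratio of 0.02. Neurofilament and axonal cytoskeleton genes had a median of -0.23 over 21 genes, with 16 below 0 and 4 over 1.5-fold lower. In that list Nefm was 2.5-fold lower, and Dpysl2 was at 29534 and 29501. Of all genes, 53.2% were below 0, 4.68% over 1.5-fold lower and 0.818% over 2-fold lower. The differences between lists have no test.

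The labelled tissue was checked against markers. Oligodendrocyte genes were bright in both arrays, with Mobp at 53099 in WT and 59026 in CD47 KO, and for 11 of them the median log2 ratio was 0.11 and the summed signals were 261281 and 282002. The largest of their ratios was that of Opalin (0.62). Markers of grey matter neurons were present as well and moved with the synaptic genes. Of 19, 13 were above the floor and all 13 were below 0, with a median of -1.07 and 8 over 2-fold lower. Of all genes, 53.2% were below 0 and 0.818% over 2-fold lower. The summed signals of the 13 were 42207 (WT) and 30667 (CD47 KO). Pmch, a hypothalamic neuropeptide gene, went from 894 to 130, and Avp (vasopressin), the brightest, from 24982 to 22364. Avp, with a log2 ratio of -0.16, thus made up most of both sums. The cortical transcription factor genes Neurod6 and Tbr1 and the dopamine receptor gene Drd2 were under the floor in both arrays, and 3 of the 19 were not analysed here. Camk2a belongs to this list as well as to the postsynaptic one. The part of such neurons in the lower synaptic signals was not tested. With 1 pool per genotype, how much tissue with such neurons each pool held cannot be told apart from genotype.

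Of 10 genes known from retinal ganglion cells, whose axons form the optic nerve, 6 were above the floor, with a median log2 ratio of -0.22, none over 1.5-fold lower, and summed signals of 2675 (WT) and 2341 (CD47 KO). The brightest was Thy1, at 1175 and 916. Sncg belongs to this list as well as to that of other neuronal release genes. Whether these signals came from retinal axons was not tested. Pou4f1, Pou4f3 and Atoh7 were under the floor in both arrays. Astrocyte genes had a median of 0.08 over 10 genes (Gja1 -0.09, Gfap 0.52), with summed signals of 102700 and 112761. Oligodendrocyte precursor genes had 0.23 over 7 (Ptprz1 0.01, Cspg4 0.58), with 13094 and 14444, and endothelial genes -0.17 over 7 (Slco1c1 -0.05, Kdr -0.79), with 2736 and 2357. Most microglial genes went the other way from the synaptic genes, with a median of 0.96 over 11 and summed signals of 41081 and 79887. Of the 11, 9 were above 0, among them Csf1r at 0.46 and Trem2 at 2.68. The 2 below 0 were Tmem119 (-0.52) and P2ry12 (-0.14). The part of the microglial genes in the result was not tested either. The probe sets of Cd47 itself left 34.3% to 39.5% of the WT signal in CD47 KO for the 3 above the floor in both arrays.

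**Figure D4:**
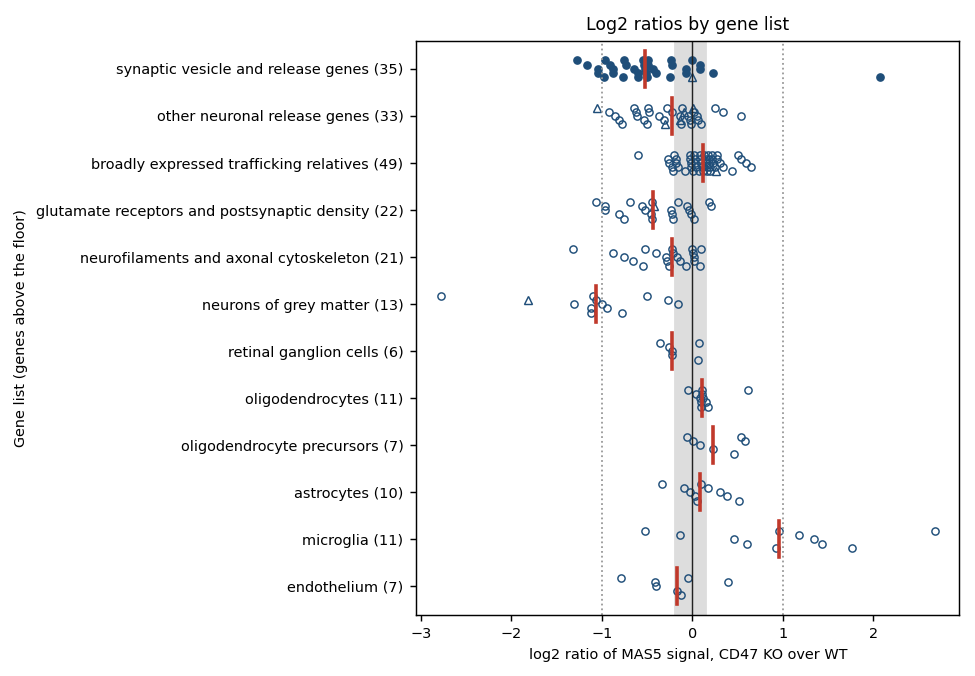
Log2 of the CD47 KO to WT ratio (horizontal axis) for each gene above the floor, by list (number of genes in brackets), with triangles where 1 array was under the floor and the median of each list as a red bar. Grey marks the range from the 25th to the 75th percentile of all 12473 genes (-0.19 to 0.15) and dotted lines 2-fold. The synaptic vesicle and release genes (filled, median -0.52) have their median left of this range, though 6 of the 35 lie inside it. Amph lies to its right, as does Syngr1 by its brightest probe set but not by its next.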

How the data were processed

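For each genotype, 250 ng of pooled white matter RNA was biotin-labelled from its 3′ end and read on 1 Affymetrix whole-genome mouse array. The authors deposited linear intensity values, 1 per probe set, made with Expression Console software. The submitters' processing notes name MAS5 without a version. Both arrays have a mean of 500.0 after 2% of probe sets are trimmed at each end, so they were scaled to a common target. The number of arrays limits the precision.

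Of 45101 probe sets, 64 controls were set aside, and 34945 with 1 gene symbol in the platform annotation were used. All 38 genes were found by gene identifier in RefSeq (GRCm38.p6), which was used for names. Intensities under the floor, the 50th percentile of both arrays (106.4), were set to it, and ratios of the CD47 KO to the WT value were put on the log2 scale. Where 1 array was at the floor, the ratio is a bound. The floor limits noisy ratios of dim probe sets and shortens the ratios of genes near it. Folds of 2, the threshold of the study, and 1.5 were counted, with no p-value. The gene lists were chosen with earlier results of these data known. All listed synaptic genes were named, and of the other lists mainly the brightest genes and those with the largest ratios. The steps were tested on simulated data with changes larger than those of most genes here, set in bright genes only. Smaller ratios and dim genes were not covered by that test. Python 3.11.15, pandas 2.3.3 and statsmodels 0.14.6 were used. The alternatives were floors at the 40th and 60th percentiles, no floor, quantile normalization, median centring, loess, the median over probe sets, and no probe sets marked for cross-hybridisation.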

Additional observations from a re-analysis of the deposited data

How the results depend on the processing

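Under the 8 alternatives and with Syngr1 taken from its next brightest probe set (chosen after seeing the data), the median log2 ratio of the synaptic genes stayed between -0.54 and -0.49, and 28 to 32 of the 32 to 36 measured genes were below 0. Between 12 and 16 were over 1.5-fold lower, where 3.25% to 6.61% of all genes were. The count over 2-fold lower ranged from 2 to 5 and was 2 with each array centred on its median, where Syngr3 and Dnm1 were just short of 2-fold lower. Of all genes, 0.507% to 2% were over 2-fold lower under these settings. The count over 2-fold higher was 0 by the median over probe sets and 0 with the other probe set of Syngr1. The log2 ratio of Napb was -0.40 by the median over probe sets, and that of Syngr1 0.75, while the lower floor (40th percentile) gave Bsn -0.66 and no floor gave it -0.69. The median of the other neuronal release genes ranged from -0.31 to -0.15 and that of the broad relatives from 0.08 to 0.15 under the 8 alternatives. Among the synaptic genes past 1.5-fold, Syngr1 changed sign, to -0.57 from its next brightest probe set, and no other did under the 8 alternatives. Stx1a had no value without probe sets marked for cross-hybridisation. No paired analysis was possible because each genotype was 1 array. Dim genes such as Bsn, Syt5 and Unc13a are limited by signal close to the floor.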
